A study of Mus musculus with 15 samples.

Results

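The proteasome is the protease that degrades ubiquitin-tagged proteins, and 49 genes of its subunits, activators and assembly factors were followed here through experimental colitis in mice of 3 *Tert* genotypes. The genes were taken by symbol (Psma, Psmb, Psmc, Psmd, Psme, Psmf or Psmg followed by a digit) from the 17531 genes of the authors' log2 table, and all 49 passed the expression filter. Such a symbol was carried by 54 rows of the larger count table. The 5 rows that are no members had 0 to 4 counts in every library: *Psma8*, the testis-type alpha subunit, and the pseudogenes *Psmb5-ps*, *Psmb6-ps*, *Psmb6-ps2* and *Psmb7-ps2*. One member, *Psmc3ip*, shares the symbol pattern but acts in meiotic recombination and is no part of the proteasome.

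Total RNA of whole colon was sequenced from TERT-/- mice (KO), from mice with an enzymatically inactive TERT (TERTVAA, here VAA) and from TERT+/+ mice (WT), all aged 8 to 12 weeks. TERT is the catalytic subunit of telomerase. The DSS groups of 3 libraries per genotype drank 3% dextran sulfate sodium, which injures the colon epithelium, for 4 days and plain water for 4 days. The untreated groups held 2 libraries per genotype, and colons were taken on day 8. The labels do not say which exons the KO lacks, whether an animal gave more than 1 library, or what the untreated mice drank, and the p-values can only speak for variation among these libraries, which may be technical.

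The core of the proteasome is a barrel of alpha and beta rings, in which PSMB5, PSMB6 and PSMB7 carry the cutting sites. Interferon gamma induces PSMB8, PSMB9 and PSMB10, which take the places of PSMB5, PSMB6 and PSMB7 in newly built cores, and the PA28 activator made of PSME1 and PSME2. The resulting immunoproteasome is known for making peptides for MHC class I, is the standard form in leukocytes and is induced in inflamed gut. *Psmb8*, *Psmb9*, *Psmb10*, *Psme1* and *Psme2* are called the immunoproteasome set below, and the 31 subunits of the alpha ring, the constitutive beta ring, the 19S ATPases and the other 19S subunits are called the constitutive set.

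*Psmb9* and *Psmb8* lie in the MHC region of chromosome 17 beside the peptide transporter genes, *Psmb9* at chr17:34181987-34187764 on the minus strand and *Psmb8* at chr17:34197721-34201454 on the plus strand (mm10, GENCODE M21). By the RefSeq start sites *Tap1* begins 225 bases from *Psmb9* and runs the other way, while the GENCODE gene models of the pair overlap by 212 exon bases. *Psme1* and *Psme2* are neighbours on chromosome 14, with 5.91 kb between their ends. The promoter windows of 5 genes, from 250 bases before to 50 bases after the RefSeq start site (GRCm38.p6, 5′ to 3′ along the gene), are shown because they stand for the induced genes, for the *Psme3* activator and for a constitutive catalytic subunit. Capitals mark a motif match, except in *Psmb9*, where they mark the 225 bases shared with *Tap1* between both start sites. The windows are chr17:34197945-34198244 (plus strand) for *Psmb8*, chr17:34187281-34187580 (minus strand) for *Psmb9*, chr14:55578244-55578543 (plus strand) for *Psme1*, chr11:101315963-101316262 (plus strand) for *Psme3* and chr14:54617946-54618245 (minus strand) for *Psmb5*.
Psmb8: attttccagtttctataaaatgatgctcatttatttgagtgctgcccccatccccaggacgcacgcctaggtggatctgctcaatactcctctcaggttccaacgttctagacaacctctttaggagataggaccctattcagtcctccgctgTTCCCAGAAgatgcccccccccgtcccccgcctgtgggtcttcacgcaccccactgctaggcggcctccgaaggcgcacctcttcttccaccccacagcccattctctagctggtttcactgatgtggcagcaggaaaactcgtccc
Psmb9: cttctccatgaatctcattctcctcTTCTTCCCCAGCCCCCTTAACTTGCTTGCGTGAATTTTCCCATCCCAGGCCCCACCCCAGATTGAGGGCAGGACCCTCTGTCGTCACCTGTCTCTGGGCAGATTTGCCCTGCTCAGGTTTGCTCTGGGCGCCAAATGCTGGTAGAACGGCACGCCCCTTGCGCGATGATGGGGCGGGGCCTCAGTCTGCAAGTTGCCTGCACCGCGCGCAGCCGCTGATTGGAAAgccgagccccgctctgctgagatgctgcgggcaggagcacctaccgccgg
Psme1: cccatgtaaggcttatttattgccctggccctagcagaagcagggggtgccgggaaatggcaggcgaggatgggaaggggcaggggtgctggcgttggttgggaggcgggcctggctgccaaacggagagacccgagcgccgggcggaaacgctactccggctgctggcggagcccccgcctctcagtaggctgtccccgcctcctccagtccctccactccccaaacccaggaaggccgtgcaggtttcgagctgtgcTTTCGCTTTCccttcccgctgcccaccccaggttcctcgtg
Psme3: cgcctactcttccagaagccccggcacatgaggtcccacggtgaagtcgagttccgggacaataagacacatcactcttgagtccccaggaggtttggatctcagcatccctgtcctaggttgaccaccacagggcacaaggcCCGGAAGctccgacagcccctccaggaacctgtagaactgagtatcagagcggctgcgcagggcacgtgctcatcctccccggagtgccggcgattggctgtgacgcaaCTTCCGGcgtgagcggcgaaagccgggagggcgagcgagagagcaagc
Psmb5: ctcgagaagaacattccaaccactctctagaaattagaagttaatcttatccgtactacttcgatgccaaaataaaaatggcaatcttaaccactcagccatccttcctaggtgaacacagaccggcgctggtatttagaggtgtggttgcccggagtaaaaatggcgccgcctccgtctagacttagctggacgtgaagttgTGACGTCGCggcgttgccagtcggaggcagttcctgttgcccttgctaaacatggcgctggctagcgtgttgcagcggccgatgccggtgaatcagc

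Counting the start site as 0, the *Psmb8* window holds TTCCCAGAA from -97 to -89, a match to the interferon gamma activated site TTCNNNGAA. The *Psme1* window holds TTTCGCTTTC from 9 to 18, a match on the other strand to the interferon regulatory factor element, which is GAAA, any 2 bases and GAAA again. In *Psme3* the ETS letters CCGGAAG stand from -107 to -101 and again, on the other strand, from 2 to 8. *Psmb5* has TGACGTCGC from -47 to -39, a match to the antioxidant response core TGACNNNGC. Each motif was searched on both strands, and none of the matches named here overlaps another. RefSeq windows were found for 42 members, 45 windows in all. CCGGAAG was in 35.6% of these and in 8.86% of all 32851 windows, in 10 of 25 constitutive genes and 0 of 5 immunoproteasome genes with a window. TTCNNNGAA was in 6.67% of the members' windows and 8.30% of all, in 1 of 5 immunoproteasome genes and 1 of 25 constitutive genes. The interferon regulatory factor element was in 11.1% of the members' windows and 3.44% of all, in 1 of 5 immunoproteasome genes and 2 of 25 constitutive genes (*Psmb3* and *Psmd4*). TGACNNNGC was in 13.3% and 12.4%, in 0 of 5 immunoproteasome genes and 4 of 25 constitutive genes. A match describes letters in a window and says nothing of binding.

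Libraries held between 10.6 and 17.5 M estimated counts (1 M is 1000000), and the 49 genes took 0.222% to 0.417% of them. *Tert* had 0 to 1 counts in KO, 7 to 29 in VAA and 23 to 40 in WT libraries. Untreated KO replicate 2 had 1666 counts of Y-linked genes and untreated WT replicate 2 had 1834, while no other library had fewer than 9 or more than 34, so sex and treatment are partly mixed. VAA DSS replicate 3 was the shallowest library, and its proteasome share, 0.245%, was below the 0.355% and 0.365% of the other VAA DSS libraries. All 9 colon epithelium markers had counts in every library. Levels below are scaled CPM, CPM being counts per 1000000 of a library size scaled by trimmed mean of M values. Changes are log2 fold changes ± SE from edgeR's quasi-likelihood test over 17477 genes. A gene counts as called where the p adjusted by Benjamini-Hochberg is under 0.05. Counts of members at an unadjusted p are given without the share of all genes at that p, so they have no baseline.

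Most proteasome genes were higher in DSS than in untreated colons. Averaged over the genotypes, 41 of 49 members rose and 0 fell, against 22.5% of all genes called higher and 20.0% called lower. The members' median change was 0.60 on the log2 scale, against 0.01 over all genes tested. All 5 immunoproteasome genes rose with a median of 1.15, and all 31 constitutive genes rose with a median of 0.61. Every whole ring and particle moved: 7 of 7 alpha subunits (median 0.60), 7 of 7 constitutive beta subunits (0.48), 6 of 6 19S ATPases (0.50) and 11 of 11 other 19S subunits (0.67). Among constitutive genes the change ran between 0.22 for *Psmc2*, an ATPase of the 19S base, and 0.82 for *Psmd3*, a 19S lid subunit.

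**Figure D1:**
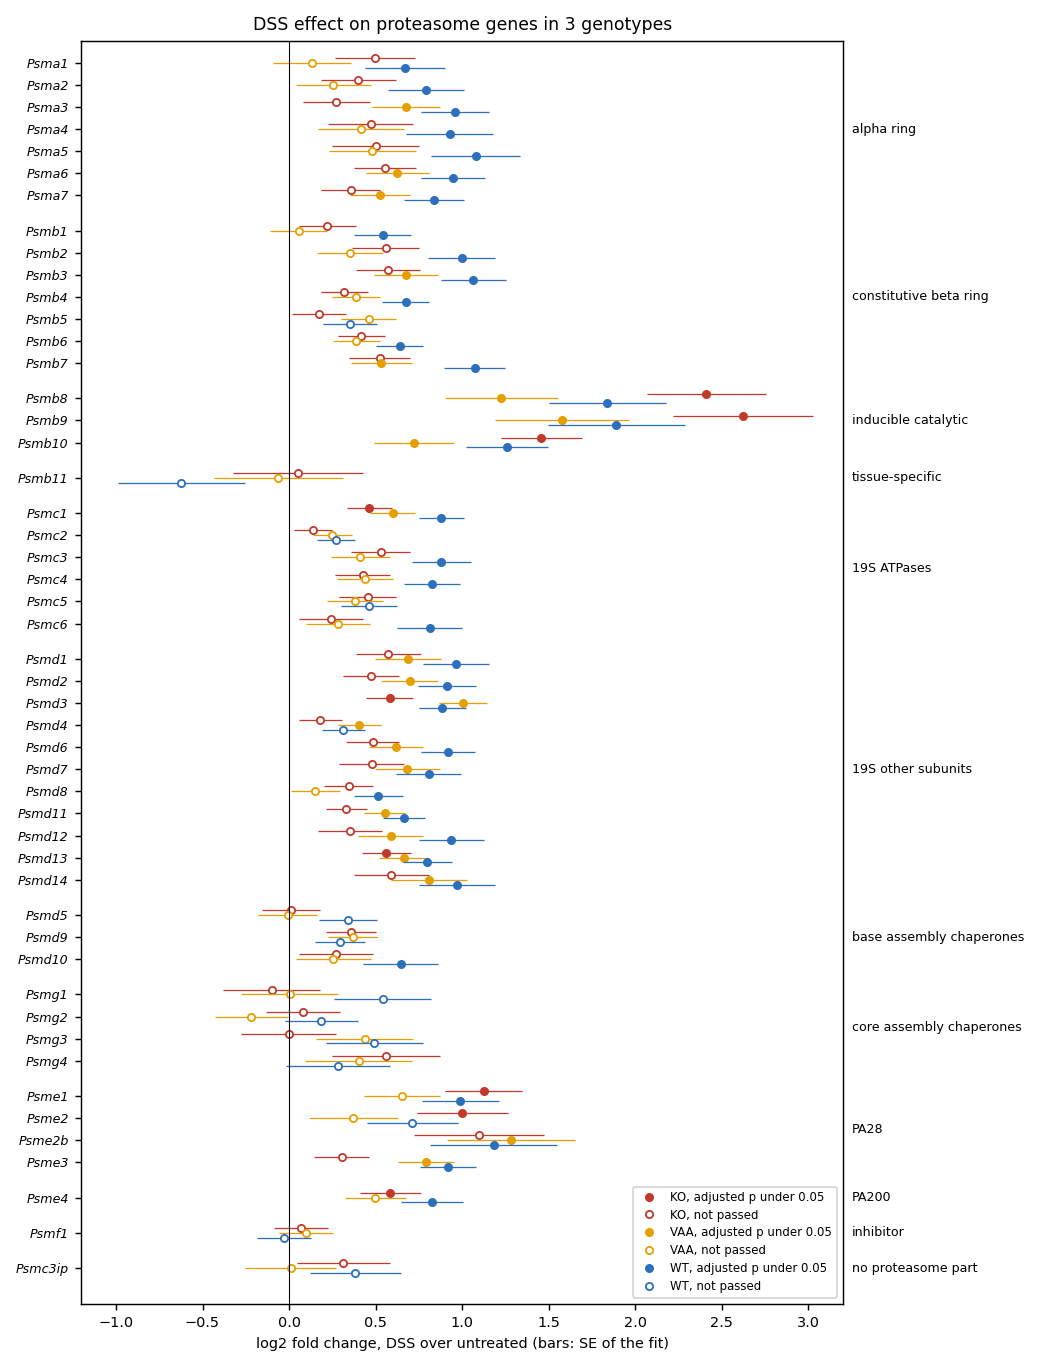
Log2 fold change of DSS over untreated colon (x axis) for the 49 genes (y axis, grouped by role) in KO, VAA and WT, with bars for the SE of the fit and filled points where the adjusted p is under 0.05. *Psmb9*, an inducible catalytic gene, lies furthest right in each genotype, and filled points number 9 in KO, 21 in VAA and 35 in WT.

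The inducible catalytic subunits *Psmb9* and *Psmb8* had the largest changes of the 49 genes. *Psmb8* had 98.8, 85.2 and 94.7 CPM in KO DSS, 62.2, 77.6 and 38.2 CPM in VAA DSS and 66.7, 56.0 and 40.5 CPM in WT DSS colons. Untreated colons had 11.7 and 23.3 CPM in KO, 30.3 and 20.4 CPM in VAA and 14.4 and 16.0 CPM in WT. No DSS library overlapped an untreated one, and *Psmb8* rose by 1.83 ± 0.19 (edgeR, adjusted p = 8.84e-06). *Psmb9* had 56.3, 41.9 and 53.7 CPM in KO DSS, 31.2, 49.2 and 19.1 CPM in VAA DSS and 36.0, 25.7 and 20.7 CPM in WT DSS colons. Its untreated levels were 6.27 and 10.2 CPM in KO, 14.3 and 7.92 CPM in VAA and 7.93 and 6.87 CPM in WT. The change of *Psmb9* was 2.03 ± 0.23 (edgeR, adjusted p = 1.46e-05), the largest of the 49. *Psmb10* had 93.4, 98.8 and 114.0 CPM in KO DSS, 82.7, 93.1 and 50.8 CPM in VAA DSS and 91.0, 73.2 and 66.9 CPM in WT DSS colons. Untreated colons had 31.0 and 43.3 CPM in KO, 43.8 and 48.0 CPM in VAA and 34.0 and 30.3 CPM in WT. All DSS libraries lay above all untreated ones again, by 1.15 ± 0.13 in the fit (edgeR, adjusted p = 2.12e-05).

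The subunits they replace had smaller fitted changes. *Psmb5*, the chymotrypsin-like site, had 37.1, 46.3 and 46.8 CPM in KO DSS, 53.5, 42.7 and 39.8 CPM in VAA DSS and 50.03, 58.02 and 44.9 CPM in WT DSS colons. Untreated colons had 37.7 and 39.3 CPM in KO, 32.3 and 33.6 CPM in VAA and 39.0 and 40.8 CPM in WT, so that the KO groups overlapped. *Psmb5* rose by 0.33 ± 0.09 over the genotypes (edgeR, adjusted p = 0.0101) but passed in no single genotype. *Psmb6*, the caspase-like site, had 45.9, 48.0 and 51.3 CPM in KO DSS, 50.6, 49.0 and 43.3 CPM in VAA DSS and 58.5, 64.2 and 55.8 CPM in WT DSS colons. Its untreated levels were 31.6 and 40.9 CPM in KO, 33.5 and 39.4 CPM in VAA and 37.3 and 39.2 CPM in WT, and it rose by 0.48 ± 0.08 (edgeR, adjusted p = 0.000308). *Psmb7*, the trypsin-like site, had 65.6, 68.5 and 64.5 CPM in KO DSS, 78.1, 81.2 and 52.4 CPM in VAA DSS and 87.7, 111.4 and 88.4 CPM in WT DSS colons. Untreated colons had 41.5 and 50.7 CPM in KO, 48.7 and 49.0 CPM in VAA and 45.9 and 45.2 CPM in WT. *Psmb7* rose by 0.71 ± 0.10 (edgeR, adjusted p = 0.000103), the largest rise of these catalytic sites.

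**Figure D2:**
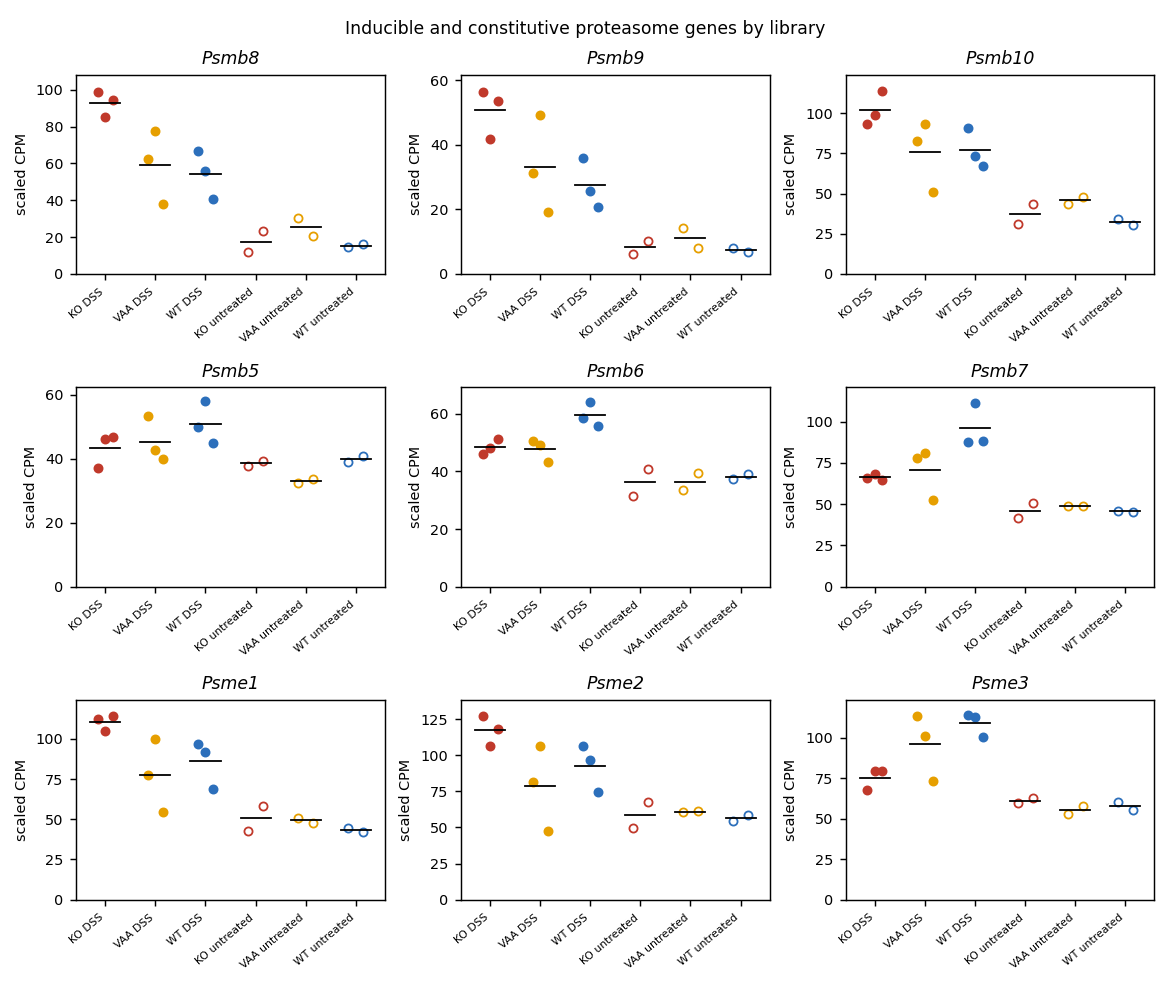
Scaled CPM (y axis, from 0) of 9 genes in each library of the 6 groups (x axis), with a line at the group mean. *Psmb8*, *Psmb9*, *Psmb10*, *Psme1* and *Psme2* are highest on average in KO DSS, while *Psmb5*, *Psmb6*, *Psmb7* and *Psme3* are highest on average in WT DSS.

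PA28 is a ring that opens the gate of the core without needing ubiquitin, with PSME1 and PSME2 in one form and PSME3 alone in a nuclear form. *Psme1* had 112.1, 104.9 and 114.5 CPM in KO DSS, 77.7, 99.9 and 54.7 CPM in VAA DSS and 96.9, 92.1 and 69.1 CPM in WT DSS colons. Untreated colons had 42.9 and 58.5 CPM in KO, 51.1 and 47.7 CPM in VAA and 44.4 and 42.2 CPM in WT, and *Psme1* rose by 0.92 ± 0.13 (edgeR, adjusted p = 7.78e-05). *Psme2* had 127.5, 106.5 and 118.2 CPM in KO DSS, 81.6, 106.4 and 47.6 CPM in VAA DSS and 106.1, 97.0 and 74.5 CPM in WT DSS colons. VAA DSS replicate 3 fell below all untreated libraries, which had 49.4 and 67.9 CPM in KO, 60.5 and 61.2 CPM in VAA and 54.1 and 58.8 CPM in WT. *Psme2* rose by 0.70 ± 0.15 over the genotypes (edgeR, adjusted p = 0.00238). *Psme3* had 67.4, 79.1 and 79.5 CPM in KO DSS, 113.4, 101.1 and 73.4 CPM in VAA DSS and 114.1, 112.9 and 100.4 CPM in WT DSS colons. Its untreated levels were 59.4 and 62.7 CPM in KO, 53.0 and 58.1 CPM in VAA and 60.3 and 55.3 CPM in WT. The rise of *Psme3* was 0.67 ± 0.09 (edgeR, adjusted p = 7.65e-05). The retrogene *Psme2b* had 16 to 93 counts, and its 1.19 ± 0.21 (edgeR, adjusted p = 0.000620) is uncertain because it is a near copy of *Psme2*.

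Of the 7 assembly chaperones among the 49 genes, 2 rose with DSS averaged over genotypes, near the 22.5% of all genes called higher. PSMG1 to PSMG4 are the chaperones that build the alpha ring, and 0 of the 4 passed edgeR's test at an adjusted p under 0.05 with DSS, in the average or in any genotype. Their average changes were 0.15 ± 0.16 for *Psmg1*, 0.02 ± 0.12 for *Psmg2*, 0.31 ± 0.16 for *Psmg3* and 0.41 ± 0.18 for *Psmg4*, which alone had an unadjusted p under 0.05. These genes are low, at 1.62 to 14.6 CPM, and the 95% interval of *Psmg1* ran from -0.20 to 0.50. Of the chaperones of the 19S base, *Psmd9* rose by 0.34 ± 0.08 (edgeR, adjusted p = 0.00517) and *Psmd10* by 0.39 ± 0.12 (edgeR, adjusted p = 0.0219), while *Psmd5* changed by 0.11 ± 0.10 and did not pass. *Psme4*, the PA200 activator, rose by 0.64 ± 0.10 (edgeR, adjusted p = 0.000248). *Psmf1*, the proteasome inhibitor PI31, stood at 22.6 to 30.8 CPM in every library and changed by 0.05 ± 0.09. *Psmb11*, the thymus-type beta subunit, had 34 to 79 counts and changed by -0.21 ± 0.21, and *Psmc3ip* had 30 to 78 counts and changed by 0.24 ± 0.15. Neither passed.

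Within single genotypes, 9 members rose with DSS in KO, 21 in VAA and 35 in WT, and 0 fell in each, against 5.59%, 10.9% and 14.1% of all genes called higher and 5.06%, 9.54% and 12.5% called lower. The 9 in KO were the 5 immunoproteasome genes with *Psmc1*, *Psmd3*, *Psmd13* and *Psme4*. With edgeR fitted on the VAA libraries alone, 1 member rose in VAA, and 1089 genes in all were called there against 3571 with all libraries. The immunoproteasome median was 1.46 in KO, 0.72 in VAA and 1.26 in WT, with 5, 3 and 4 of 5 genes called. The constitutive median was 0.46 in KO, 0.48 in VAA and 0.84 in WT, with 3, 16 and 27 of 31 called. All 31 constitutive changes were positive in each genotype. Every DSS library lay above every untreated one of its genotype for 37 members in KO, 31 in VAA and 45 in WT, against 24.1%, 21.0% and 31.9% of all genes, and below for 0 members in each, against 24.0%, 19.7% and 31.1%.

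These counts moved with single libraries. Calls over all genes are given here for both directions together. Without VAA DSS replicate 3 the calls became 26 in KO, 35 in VAA and 40 in WT, while over all genes they became 3750, 4902 and 6505, against 1862, 3571 and 4642 with every library. In KO the members called dropped to 2 without untreated replicate 1 (403 over all genes), to 6 without untreated replicate 2 (703) and to 5, 4 and 5 without DSS replicates 1, 2 and 3 (1040, 850 and 1024). In VAA they were 3 and 7 without untreated replicates 1 and 2 (1789 and 2039 over all genes), and 10 without DSS replicate 1 or 2 (2823 and 3874). In WT they were 23 and 22 without untreated replicates 1 and 2 (1958 and 2176 over all genes).

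The difference in the DSS effect between genotypes was tested directly. For KO minus WT it was positive for all 5 immunoproteasome genes (median 0.29) and negative for all 31 constitutive genes (median -0.39), against a median of -0.01 over all genes. By edgeR 0 members passed, as did 0% of all genes. DESeq2 and limma also called 0 members, with 134 and 9 genes called in all. At an unadjusted p under 0.05 there were 0 higher and 6 lower members: *Psma3*, *Psmb7*, *Psmc1*, *Psmc6*, *Psmd12* and *Psme3*, picked here by that p. *Psme3* had -0.61 ± 0.22 (edgeR, adjusted p = 0.388), and *Psmb8* had 0.57 ± 0.45 with a 95% interval of -0.40 to 1.54. For VAA minus WT the median was -0.34 in the immunoproteasome set and -0.30 in the constitutive set, and edgeR, DESeq2 and limma each called 0 members, with 0 higher and 2 lower at an unadjusted p under 0.05. The medians were -0.15 and -0.18 without VAA DSS replicate 3. For VAA minus WT each of edgeR, DESeq2 and limma called 0 genes in all.

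Under DSS, KO and WT colons differed in opposite directions for the 2 sets. The immunoproteasome median of KO over WT was 0.41, positive for 5 of 5, and the constitutive median was -0.39, negative for 31 of 31, against -0.01 over all genes. All KO DSS libraries lay above all WT DSS libraries for 5 of 5 immunoproteasome genes, against 16.4% of all genes. For 24 of 31 constitutive genes all KO libraries lay below, against 19.5%, and for 0 of 31 above. Summed over the 31 constitutive genes, the level was 2209 to 2340 CPM in KO and 2691 to 3233 CPM in WT, and summed over the immunoproteasome set it was 437 to 495 CPM in KO and 272 to 397 CPM in WT. Neither set has a called gene: edgeR called 0 members higher (3.21% of all genes) and 1 lower (2.46% of all genes).

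**Figure D3:**
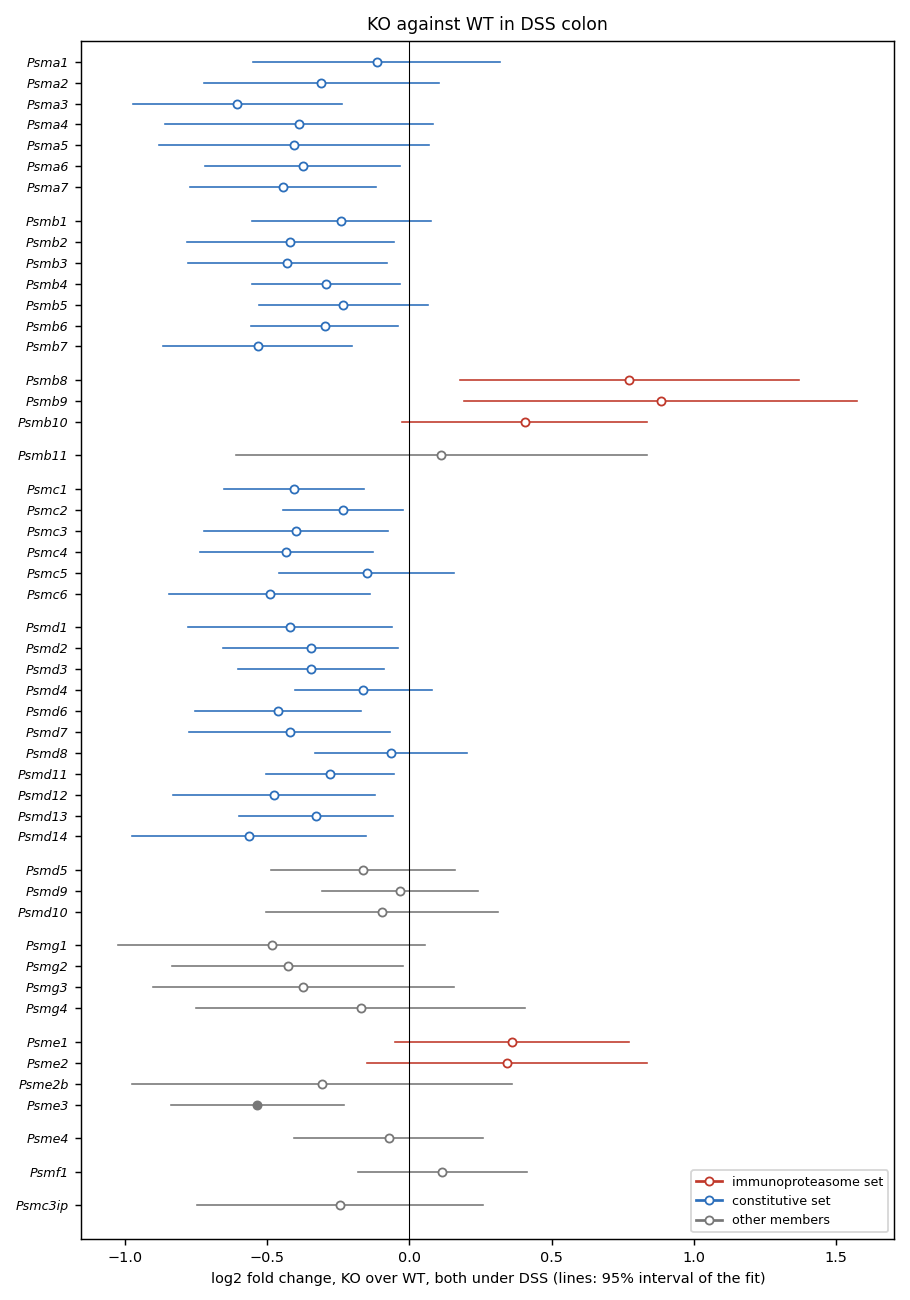
Log2 fold change of KO over WT DSS colon (x axis) with its 95% interval for the 49 genes (y axis, grouped by role); the only filled point, *Psme3* at -0.53, passed an adjusted p of 0.05. The 5 immunoproteasome genes lie right of 0 and the 31 constitutive genes left of it.

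The called gene was *Psme3*, at 75.4 ± 6.90 CPM in KO DSS and 109.1 ± 7.62 CPM in WT DSS (SD, n = 3 each), which fell by 0.53 ± 0.14 on the log2 scale (edgeR, adjusted p = 0.0440). The call held in 10 of 23 alternative fits, over which the adjusted p ran from 0.00395 to 0.181 and the change from -0.64 to -0.46. It was lost when any of the 6 untreated libraries, any of the 3 KO DSS libraries or WT DSS replicate 1 or 2 was left out, without both male libraries and with sex as a covariate. *Psmb8* was 0.77 ± 0.28 higher (edgeR, adjusted p = 0.119) and *Psmb9* 0.88 ± 0.32 higher (edgeR, adjusted p = 0.123), and both missed the threshold. *Psmb10* at 0.41 ± 0.20, *Psme1* at 0.36 ± 0.19 and *Psme2* at 0.34 ± 0.23 had 95% intervals that included 0. At an unadjusted p under 0.05 there were 2 members higher and 24 lower, with no share of all genes to set beside them. DESeq2 called 5 lower (827 genes lower in all) and limma 8 lower (856 genes lower in all). Fitted on the KO and WT DSS libraries alone, edgeR called 2 members higher and 18 lower, and 1277 genes higher and 1489 lower in all, against 561 and 430 with all libraries. Without VAA DSS replicate 3, which belongs to neither group but shares the estimate of spread, the members split in the same way, with *Psmb8* and *Psmb9* higher, and 1193 genes were called higher and 1511 lower in all. Without VAA DSS replicate 2 it called 6 members, all lower, and 596 genes lower in all.

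KO colons were also set against VAA colons under DSS, where no member passed edgeR's test. The immunoproteasome median of KO over VAA was 0.58, positive for 5 of 5, and the constitutive median was -0.06, with 10 of 31 positive. Leaving out VAA DSS replicate 3 gave medians of 0.33 and -0.21. KO lay wholly above VAA for 4 of 5 immunoproteasome genes, against 13.7% of all genes, with *Psmb9* as the exception, because VAA DSS replicate 2 had 49.2 CPM and KO DSS replicate 2 had 41.9 CPM. KO lay wholly below VAA for 1 constitutive gene, against 14.6%. edgeR called 0 members (6.01% of all genes higher, 9.41% lower), with 3 higher and 3 lower at an unadjusted p under 0.05. DESeq2 called 0 members (1292 genes higher and 1905 lower in all) and limma 1 lower (1841 genes lower in all). Without VAA DSS replicate 2 edgeR called 5 higher (1540 over all genes), and without VAA DSS replicate 3 it called 5 lower (*Psma3*, *Psmd1*, *Psmd14*, *Psmd6* and *Psme3*, 1146 over all genes). It called 1 lower without KO DSS replicate 2 (702 over all genes).

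For VAA over WT under DSS the constitutive median was -0.30, negative for 31 of 31, and the immunoproteasome median was -0.02. VAA lay wholly below WT for 13 members, against 7.91% of all genes, and wholly above for 0, against 8.76%. edgeR called 0 members (0.00572% of all genes higher, 0% lower), with 0 higher and 12 lower at an unadjusted p under 0.05. DESeq2 and limma also called 0 members, with 36 and 1 genes called in all. Without VAA DSS replicate 2 edgeR called 3, all lower (283 over all genes). Without VAA DSS replicate 3 the constitutive median was -0.16 and the immunoproteasome median 0.18. In untreated colons KO over WT gave medians of 0.20 for the immunoproteasome and 0.02 for the constitutive set, and VAA over WT gave 0.51 and 0.00. *Psmb8* was 0.74 ± 0.35 higher in untreated VAA than in untreated WT (edgeR, adjusted p = 1.00), with 30.3 and 20.4 CPM against 14.4 and 16.0 CPM. No member passed in either untreated comparison by edgeR, DESeq2 or limma, and 0 had an unadjusted p under 0.05. Over all genes edgeR called 0% in both comparisons. For KO over WT DESeq2 called 9 genes and limma 1, and for VAA over WT DESeq2 called 2 and limma 0.

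The balance between the inducible and the replaced subunits was read within each library, as summed CPM of *Psmb8*, *Psmb9* and *Psmb10* over summed CPM of *Psmb5*, *Psmb6* and *Psmb7*. It is free of library scaling but not corrected for length, so it is compared between libraries only, with no test. The ratio was 1.67, 1.39 and 1.61 in KO DSS, 0.966, 1.27 and 0.798 in VAA DSS and 0.987, 0.663 and 0.677 in WT DSS colons. Untreated colons had 0.442 and 0.587 in KO, 0.772 and 0.626 in VAA and 0.461 and 0.425 in WT. All KO DSS libraries stood above all other libraries, VAA DSS overlapped WT DSS, and every DSS library stood above the untreated ones of its genotype. As a log2 change, DSS over untreated was 1.61 in KO, 0.52 in VAA and 0.78 in WT, and under DSS KO over WT was 1.03. Each matched pair had the same order of means under DSS: *Psmb8* over *Psmb5* averaged 2.18 ± 0.433 in KO, 1.31 ± 0.446 in VAA and 1.07 ± 0.233 in WT (SD, n = 3 each). *Psme1* plus *Psme2* over *Psme3* was 3.56, 2.67 and 2.93 in KO DSS, 1.41, 2.04 and 1.40 in VAA DSS and 1.78, 1.67 and 1.43 in WT DSS colons. Untreated colons had 1.55 and 2.02 in KO, 2.11 and 1.87 in VAA and 1.63 and 1.83 in WT, so that DSS libraries lay wholly above the untreated ones in KO but not in VAA or WT.

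**Figure D4:**
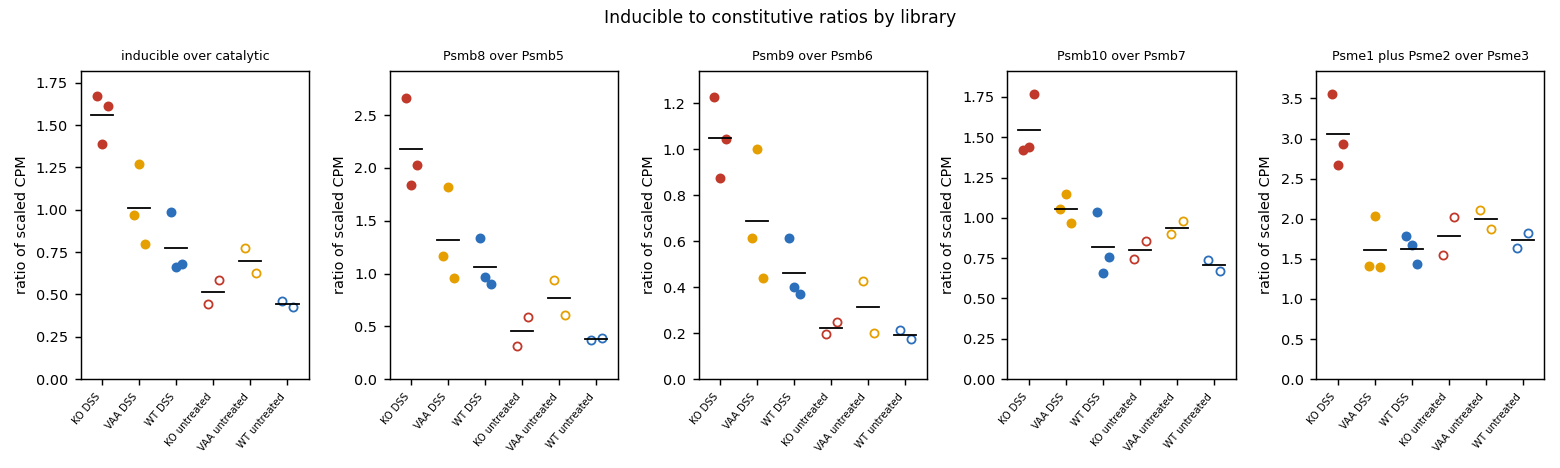
Ratios of scaled CPM (y axes, from 0) in each library of the 6 groups (x axes), with a line at the group mean: summed inducible over summed constitutive catalytic genes, the 3 matched pairs, and *Psme1* plus *Psme2* over *Psme3*. KO DSS libraries are at 1.39 to 1.67 in the first panel, above all other libraries.

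Per kb of principal transcript, the levels can be set side by side, though levels and ranks depend on the length taken. That length is 1 annotated transcript per gene, from 555 bases for *Psmg4* to 6491 for *Psme4*, and other lengths were not tried. *Psme2* was at 122.0 ± 10.9 CPM per kb in KO DSS, the highest of the 49, and at 96.2 ± 16.9 in WT DSS and 58.7 ± 3.39 in untreated WT (SD, n = 3, 3 and 2). *Psmb8* was at 57.1 ± 4.30 CPM per kb in KO DSS and *Psmb5* at 48.2 ± 6.07, a gap smaller than the sum of both SDs, while in WT DSS *Psmb8* was at 33.4 ± 8.09 and *Psmb5* at 56.7 ± 7.36. In untreated WT colons *Psmb8* had 9.33 ± 0.722 and *Psmb9* 5.47 ± 0.557 CPM per kb, below the lowest constitutive gene at 16.0. The median constitutive level was 46.7 CPM per kb in KO DSS, 45.0 in VAA DSS, 56.0 in WT DSS and 36.3 in untreated WT. Exons of 15 members overlap another gene, among them *Psmb9* with *Tap1* (212 bases, opposite strand), *Psmb8* with the antisense gene *Gm20496* and *Psmb7* with *Nek6*. The *Psmb8* overlap has 498 bases and the *Psmb7* overlap 405, also with a gene on the opposite strand. The counting is not stated to use strand, so reads that lie wholly within such shared bases cannot be told apart.

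The genes around the proteasome were grouped in lists. Of 20 tested proteasome partners (*Paaf1* was not tested), 9 rose and 1 fell with DSS averaged over genotypes, with a median of 0.19. Of all genes, 22.5% were called higher and 20.0% lower in that comparison, with a median of 0.01. *Pomp*, the maturation factor of the core, rose by 0.74 ± 0.10 (edgeR, adjusted p = 7.13e-05), and *Adrm1*, a ubiquitin receptor of the 19S particle, rose by 0.69 ± 0.08 (edgeR, adjusted p = 1.88e-05). *Nfe2l1*, the transcription factor that restores proteasome genes when the proteasome is inhibited, stood at 161.3 to 231.3 CPM and changed by -0.09 ± 0.07 (edgeR, adjusted p = 0.335). Of the 12 genes of class I peptide supply 11 rose (median 0.83), with *Nlrc5*, the class I transactivator, at 3.45 ± 0.30 and *Tap1* at 2.20 ± 0.25. In KO over WT under DSS 3 of the 12 rose, against 3.21% of all genes called higher. These were *Tapbp* by 0.83 ± 0.15 (edgeR, adjusted p = 0.00951), *H2-K1* by 0.79 ± 0.12 (edgeR, adjusted p = 0.00501) and *H2-D1* by 0.52 ± 0.13 (edgeR, adjusted p = 0.0336). *Tap1* was 0.74 ± 0.35 there and did not pass (edgeR, adjusted p = 0.237).

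Of the 12 interferon gamma genes 9 rose with DSS (median 0.78), against 22.5% of all genes called higher. Among the 9 was the transcription factor gene *Irf1*, with 0.79 ± 0.18 (edgeR, adjusted p = 0.00317). The ligand *Ifng* had 1, 5 and 6 counts in KO DSS, 6, 30 and 0 in VAA DSS and 44, 12 and 4 in WT DSS, and 0 in all 6 untreated libraries. In KO over WT under DSS edgeR called 0 of the 12, against 3.21% of all genes called higher and 2.46% lower. Of the 12, 9 had positive values, and the median was 0.17, with *Irf1* at 0.18 ± 0.27. In KO over VAA under DSS 6.01% of all genes were called higher and 9.41% lower. Of these lists, *Tapbp*, *H2-K1* and *B2m* were called higher there, and *Adrm1* and *Socs1* lower. *Socs1* had 5.20, 4.98 and 9.14 CPM in KO DSS and 22.5, 31.0 and 20.4 CPM in VAA DSS.

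Markers of several cell types moved with the same comparisons. To set beside their counts, 22.5% of all genes were called higher and 20.0% lower with DSS averaged over genotypes. The shares were 3.21% and 2.46% in KO over WT under DSS, and 6.01% and 9.41% in KO over VAA under DSS. With DSS all 5 leukocyte markers rose, with summed levels of 155.2 to 285.6 CPM in KO DSS, 151.2 to 329.9 in VAA DSS and 226.8 to 271.5 in WT DSS against 34.5 to 134.7 CPM in the untreated libraries. All 6 T and NK cell markers rose (median 2.77), 4 of 5 neutrophil markers rose (median 7.37), 4 of 5 macrophage and monocyte markers rose (median 0.66) and 5 of 6 smooth muscle markers fell (median -2.22). In KO over WT under DSS 0 of 5 leukocyte and 0 of 6 T and NK cell markers passed, while 4 of 5 neutrophil markers fell, with summed levels of 37.6 to 44.6 CPM in KO and 193.1 to 247.3 CPM in WT. The T and NK cell sum was 23.6 to 25.0 CPM in KO and 14.3 to 19.5 CPM in WT. Sums overlapped for macrophages and monocytes (165.5 to 232.4 CPM in KO, 224.9 to 385.1 in WT) and B cells (11.3 to 95.6, 37.5 to 64.0). They also overlapped for smooth muscle (441 to 1445, 426 to 703) and endothelium (31.5 to 38.2, 38.1 to 50.6). Epithelial markers were called higher in 2 of 9 (*Epcam* and *Cdh1*), with sums of 12362 to 14747 CPM in KO and 9717 to 10395 CPM in WT. Untreated colons had epithelial sums of 8855 to 11094 CPM in KO, 9810 to 10089 in VAA and 9139 to 9867 in WT. In KO over VAA under DSS 4 of 5 neutrophil, 2 of 5 macrophage and monocyte and 3 of 3 endothelial markers fell, while 5 of 9 epithelial and 1 of 6 T and NK cell markers rose. Neutrophil sums were 37.6 to 44.6 CPM in KO and 222.8 to 359.1 CPM in VAA, macrophage and monocyte sums 165.5 to 232.4 CPM in KO and 257.0 to 458.8 CPM in VAA, and epithelial sums 12362 to 14747 CPM in KO and 8814 to 10818 CPM in VAA. Endothelial sums were 31.5 to 38.2 CPM in KO, and 48.0, 60.3 and 133.7 CPM in the VAA libraries, where VAA DSS replicate 3 was the highest. The T and NK cell markers *Cd3g*, *Gzmb* and *Prf1* and the neutrophil markers *S100a8*, *S100a9* and *Retnlg* were at 0 in at least 1 library. In bulk tissue fewer cells of a type and less RNA per cell cannot be told apart, and the part of these markers in the proteasome results was not tested.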

How the data were processed

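Total RNA libraries of mouse colon were grouped by the sample labels into 3 genotypes and 2 treatments, 15 libraries in all. The deposited table holds the authors' estimated counts for each gene symbol, made with kallisto 0.46 and the mm10 build per the submitters' processing notes; they were whole numbers already. The authors also deposited log2 CPM, which a recomputation from the counts with a prior count of 2 matched to within 0.0182. The sources used here do not give the transcript annotation or the strand setting.

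Testing used edgeR 4.0.16 under R 4.3.3: genes kept by its expression filter over the groups (17477), scaling by trimmed mean of M values, 1 mean per group over all 15 libraries, quasi-likelihood tests of 11 contrasts and Benjamini-Hochberg adjustment over all genes. All groups share 1 spread because untreated groups hold 2 libraries. The procedure was tested on simulated data. Alternatives were DESeq2 1.42.0, limma 3.58.1 on the deposited log2 values, DESeq2 size factors, no expression filter, only the groups compared, each library left out, sex as a covariate and a replicate block. Leaving out both male libraries was added after the data were seen.

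The members and lists were chosen with earlier results of these data known. Always named were the immunoproteasome genes, the subunits they replace, *Psme3*, the activators, the inhibitor, the chaperones and, of the linked lists, *Pomp*, *Nfe2l1*, *Tap1*, *Irf1* and *Nlrc5*. Otherwise up to 5 called members per direction and comparison, and up to 4 called genes per linked list, with the smallest p could be named, and not all were. *Psmc2*, the members listed by an unadjusted p or by the fit without a library, and *Epcam* and *Cdh1* were named after their values were seen. The values of 1 gene of the interferon gamma list are not reported here, though the counts of that list include it. Positions are from GENCODE M21 and promoters from RefSeq on GRCm38.p6.

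Libraries of the same group differed by more than sampling noise (chi-square per degree of freedom 10.7 to 105.1). The pairs with VAA DSS replicate 3 had 64.0 and 105.1, and the highest of the other pairs had 28.0.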

Additional observations from a re-analysis of the deposited data

How the results depend on the processing

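Among 840 alternative fits of the 37 called values of single genes, 765 kept direction and call, 75 kept the direction without passing and 0 reversed. Another 41 fits of uncalled values passed, and 38 uncalled values changed sign and stayed uncalled. The counts of called proteasome genes moved more, and the cause was not tested. For DSS in KO (9 as reported) the count was 14 by DESeq2, 5 by limma, 19 with only the groups compared, and 5 without both male libraries, all higher. Over all genes 1277, 700, 1369 and 312 were then called higher, against 977. Calls over all genes in both directions were 2483, 2247, 2986 and 538, against 1862. For KO over WT under DSS (1 as reported) it was 5 by DESeq2, 8 by limma, 20 with only the groups compared and 0 without both male libraries. Over all genes 1753, 1231, 2766 and 531 were called in both directions together, against 991. For DSS in VAA (21) it was 1 higher with only the groups compared (569 of 1089 genes called were higher, against 1904 of 3571). For DSS in WT (35) it was 21 higher without both male libraries (979 of 1999, against 2466 of 4642). For KO over VAA under DSS (0) it was 1 lower by limma (1841 of 2558 genes called were lower, against 1644 of 2695).

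Libraries left out in turn gave 38 to 42 calls for DSS averaged over genotypes, 2 to 26 in KO, 3 to 35 in VAA and 22 to 40 in WT. Under DSS they gave 0 to 20 for KO over WT, 0 to 5 for KO over VAA and 0 to 3 for VAA over WT, and 0 in both untreated comparisons and both differences of the DSS effect. The log2 change of the inducible to constitutive ratio ran from 1.40 to 1.81 for DSS in KO, 0.34 to 0.67 in VAA and 0.60 to 0.89 in WT. Under DSS it ran from 0.93 to 1.21 for KO over WT, 0.49 to 0.82 for KO over VAA and 0.20 to 0.57 for VAA over WT.

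Whether replicate numbers pair the libraries is not known. Of 33 pairs of equal number, with residual correlations of -0.16 to 0.31, 8 exceeded 0.1. Pairs of unequal number were not set beside them, so these values cannot decide it. With the number as a block, the count was 22 for DSS in KO, 7 for KO over WT and 2 for KO over VAA under DSS. Without the block it was 9, 1 and 0. Over all genes, in both directions together, the calls were 2542, 1074 and 2647 with the block, and 1862, 991 and 2695 without it.

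The deposited log2 values carry no scaling factor, and with them the median of all genes was -0.13 for DSS in KO and -0.12 for KO over WT under DSS, against 0.00 and -0.01 in edgeR. The share of higher among called genes was then 31.2% against 52.5% for DSS in KO, 30.5% against 56.6% for KO over WT, 28.0% against 39.0% for KO over VAA under DSS, and 42.2% against 52.9% for DSS averaged. Even so, the immunoproteasome and constitutive medians for KO over WT under DSS were 0.31 and -0.48. Groups of 2 or 3 libraries limit all comparisons.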
